A study of Mus musculus with 23 samples.

Results

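Bone morphogenetic proteins (BMPs) are secreted ligands of the TGF-beta superfamily that were named for their ability to induce bone. They bind pairs of type I and type II receptors, which phosphorylate SMAD1, SMAD5, and SMAD9, and these enter the nucleus with SMAD4 to change transcription. Secreted antagonists such as noggin and gremlin 1 bind the ligands and keep them from their receptors. The 7 ligands Bmp2, Bmp3, Bmp4, Bmp5, Bmp6, Bmp7, and Bmp8a and the 2 antagonists Nog and Grem1 were examined here. They were chosen by gene symbol among 17644 genes with a symbol, and each of the 9 passed the filter on low counts with which 14364 genes were tested.

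RNA-Seq had been performed on marrow-depleted femur and tibia of 23 female C57BL6/N mice at 11 weeks of age, each sequenced as its own library. Wild-type mice were either given saline (WT Control, n = 5) or made diabetic (WT T1D, n = 6), and mice labelled as Sarm1 knockouts were likewise given saline (KO Control, n = 6) or made diabetic (KO T1D, n = 6). Streptozotocin, a toxin of the insulin-producing beta cells, was injected in repeated doses of 100 mg/kg to cause type 1 diabetes (T1D), which had lasted for 3 weeks. Diabetic mice were included if their fasting glucose stayed above 300 mg/dL. Sarm1 encodes an NAD-cleaving enzyme of axon degeneration, and the design asks whether its global loss alters what T1D does to bone. The WT mice were littermates or purchased mice, and 4 of them, 1 WT Control and 3 WT T1D, had labels beginning with A17, whereas all others began with A36 to A39.

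Total counts ranged from 16938101 to 20135592 per mouse. Sarm1 had 5 to 32 counts per mouse, and these counts do not show the knockout, since its mean was lower in KO than in WT among control mice and higher among diabetic mice, with overlapping ranges. In CPM, counts scaled to library size with TMM normalization, its mean ± SD was 1.17 ± 0.403 for WT Control, 0.687 ± 0.293 for WT T1D, 0.799 ± 0.503 for KO Control, and 1.19 ± 0.259 for KO T1D. By qPCR, the study reported that Sarm1 was low in bone and was significantly lower in knockout than in wild-type bone. Osteoblast markers were abundant in most mice, but the WT T1D mice A3905 and A3906 stood apart, with summed CPM over the 8 osteoblast markers of 6047 and 4593 against 52758 to 117861 in the other 21 mice. The main results that involve WT T1D are therefore also given without these 2 mice. Markers of other cells were present too. The summed CPM of the 10 measured erythroid markers was 97956 to 143630 in WT Control and 126650 to 238190 in WT T1D, and 5 of the 10 were called higher in WT T1D, against 1.5% of all tested genes. Of the 8 osteoblast markers 2 were called lower, against 0.828% of all genes. The 7 chondrocyte markers summed to 838 to 1883 CPM in WT Control and 175 to 1095 CPM in WT T1D. The 8 neutrophil markers overlapped, at 23502 to 32672 CPM in WT Control and 26603 to 41712 CPM in WT T1D. The 5 osteocyte markers summed to 460 CPM in A3905 and 488 CPM in A3906, within the 325 to 578 CPM of WT Control. The 5 marrow stromal markers summed to 2031 and 2067 CPM in these mice, against 1491 to 1664 CPM in WT Control and up to 2049 CPM in KO Control. Chondrocyte markers were 175 and 209 CPM in A3905 and A3906. Endothelial markers were 202 and 196 CPM, against 223 to 302 CPM in WT Control. Megakaryocyte markers were 689 and 690 CPM, against 958 to 1529 CPM. Erythroid markers were 238190 and 233151 CPM and neutrophil markers 41712 and 37722 CPM, above every WT Control mouse. Skeletal muscle markers, at 3400 and 2507 CPM, lay within the 984 to 7180 CPM of WT Control. No marker on these lists was at 0 in every mouse. In bulk bone, fewer cells of a type cannot be told apart from less RNA per cell.

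The 9 genes were measured at moderate levels. On the TPM scale, which accounts for transcript length, Bmp3 had the highest mean over the 23 mice at 15.96 ± 4.78 TPM. BMP3 differs from most of the family in that it opposes the osteogenic ligands. Bmp6, whose product also controls hepcidin and iron balance, followed at 11.8 ± 2.69 TPM, and Bmp4, an osteogenic ligand closely related to BMP2, at 10.7 ± 3.19 TPM. Bmp7, Bmp2, and Grem1 were close together at 7.56 ± 2.70, 7.30 ± 2.29, and 7.12 ± 2.24 TPM. Below them were Bmp8a at 5.24 ± 1.70 TPM and Bmp5, a ligand of periosteum and cartilage, at 4.33 ± 1.47 TPM. Nog was lowest at 2.07 ± 0.626 TPM. The order within a mouse was firm at some steps and loose at others. Bmp3 exceeded Bmp6 in 20 of 23 mice, Bmp4 exceeded Bmp7 in 22, and Bmp5 exceeded Nog in 22. Bmp7 exceeded Bmp2 in only 13 mice and Bmp2 exceeded Grem1 in only 14, so these neighbors did not differ beyond their spread. The order of Bmp6 and Bmp4 also depended on the group. Bmp6 was above Bmp4 in 15 of 23 mice overall but in 0 of 5 WT Control mice.

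**Figure D1:**
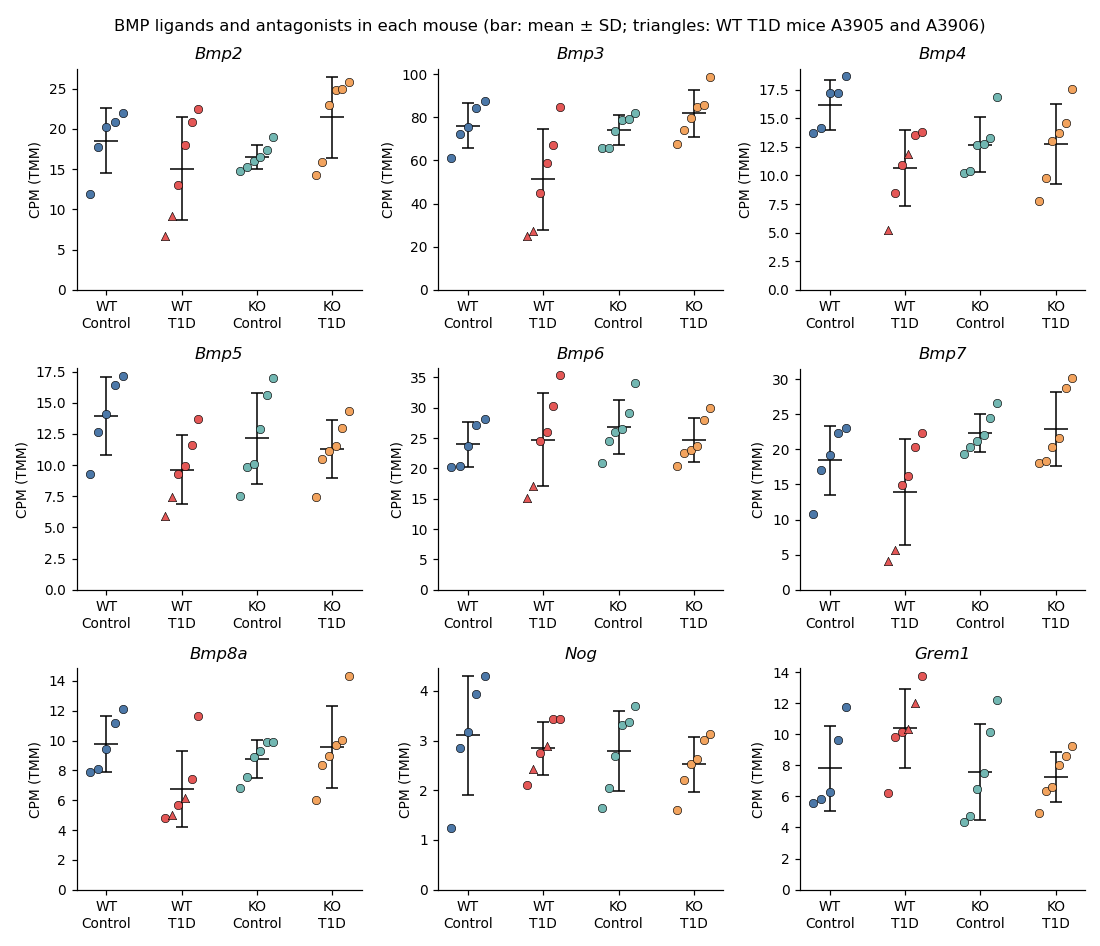
TMM-normalized CPM (y axis, linear from 0) of the 9 genes in each of 23 mice by group, with bars for mean ± SD. Triangles mark the WT T1D mice A3905 and A3906, which are the lowest 2 of all mice for Bmp2, Bmp3, Bmp6, and Bmp7 and are not the lowest for Grem1 or Nog.

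In WT bone, 7 of the 9 genes, 6 ligands and Nog, had lower fitted values with T1D, against 51.9% of all tested genes, and none passed the threshold. Bmp4, Bmp3, Bmp5, and Bmp8a were lowest relative to WT Control, at 0.659 to 0.695 of the control level, Bmp6 was level, and the antagonist Grem1 was higher in value. In edgeR's quasi-likelihood test with Benjamini-Hochberg adjustment over all genes, 0 of 9 were called at an adjusted p of 0.05, against 2.33% of all tested genes. At an unadjusted p of 0.05, 4 of 9 were lower, against 11.2% of all genes, and 0 were higher, against 11.0%. The median log2 fold change of the 9 genes was -0.41, and that of all genes was -0.01. Without A3905 and A3906, 1 of 9 was lower at an unadjusted p of 0.05, Bmp4, against 5.62% of all genes, and the median of the 9 was -0.09. Bmp2, Bmp3, Bmp4, and Bmp8a were among osteoblast genes that the study had chosen for display on these same samples, so their direction is not independent evidence.

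Bmp4, at chr14:46383525-46390669 (GRCm38.p6, as for all positions here, from RefSeq), had the smallest adjusted p of the 9. It measured 13.7, 14.1, 17.2, 17.2, and 18.7 CPM in the WT Control mice. In the WT T1D mice it measured 5.26, 8.44, 11.0, 11.9, 13.6, and 13.8 CPM. Of the 6 diabetic values, 5 were under the lowest control value, and the groups met only where A3909 at 13.8 CPM exceeded A1757 at 13.7 CPM. This gave a log2 fold change of -0.60 ± 0.21 (SE, edgeR adjusted p = 0.0959).

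Bmp3, at chr5:98854415-98884053 and the most abundant of the ligands, measured 60.9, 72.3, 75.4, 84.5, and 87.4 CPM in WT Control. It measured 25.1, 27.1, 44.7, 58.8, 67.1, and 85.0 CPM in WT T1D. Of the 6 diabetic mice, 4 were under the lowest control, 1 was within the control range, and 1 was near its top. Its log2 fold change was -0.57 ± 0.21 (edgeR adjusted p = 0.123).

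Bmp8a, at chr4:123312645-123343252, measured 7.89, 8.12, 9.44, 11.2, and 12.1 CPM in WT Control. It measured 4.78, 5.03, 5.66, 6.17, 7.40, and 11.6 CPM in WT T1D. Again 5 of the 6 diabetic values were under the lowest control value, and that of A3909 was near the top of the control range. The fitted change was -0.52 ± 0.21 on the log2 scale (edgeR adjusted p = 0.148). Bmp8a has a close paralog, Bmp8b, and RSEM estimates how reads that fit both are divided, so its values are less certain.

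Bmp5, at chr9:75775365-75900316, measured 9.31, 12.7, 14.1, 16.5, and 17.2 CPM in WT Control. It measured 5.90, 7.47, 9.25, 9.92, 11.6, and 13.7 CPM in WT T1D. Each of the 6 diabetic mice lay under the control mean, and 3 lay under the lowest control. This corresponded to a log2 fold change of -0.53 ± 0.22 (edgeR adjusted p = 0.154).

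Bmp7, at chr2:172868012-172940321, and Bmp2, at chr2:133552159-133562896, both classical inducers of bone formation, had wider spreads. Bmp7 measured 10.8, 17.02, 19.1, 22.3, and 23.03 CPM in WT Control and 4.13, 5.73, 14.9, 16.2, 20.3, and 22.4 CPM in WT T1D. Bmp2 measured 11.9, 17.7, 20.2, 20.9, and 21.9 CPM in WT Control and 6.71, 9.23, 13.1, 18.0, 20.8, and 22.5 CPM in WT T1D. For both genes the 2 mice below all controls were A3905 and A3906, and the other 4 WT T1D mice lay within the control range or above it. On the log2 scale the change was -0.41 ± 0.30 for Bmp7 (edgeR adjusted p = 0.435). It was -0.30 ± 0.24 for Bmp2 (edgeR adjusted p = 0.468).

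Bmp6, at chr13:38345716-38500314, did not share the lower values. It measured 20.3, 20.4, 23.7, 27.2, and 28.1 CPM in WT Control and 15.1, 17.2, 24.5, 26.0, 30.3, and 35.4 CPM in WT T1D, so the WT T1D mice lay both below and above the controls. Its log2 fold change was 0.05, with a 95% interval from -0.31 to 0.41 (edgeR adjusted p = 0.905). This sign turned in other fits, including the one on TPM described in the closing section.

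Of the antagonists, Grem1 was higher in value and Nog was slightly lower. Grem1, at chr2:113748675-113758648, measured 5.59, 5.84, 6.27, 9.64, and 11.7 CPM in WT Control and 6.19, 9.80, 10.1, 10.4, 12.0, and 13.8 CPM in WT T1D. Of the 6 WT T1D mice, 5 were above the WT Control mean, but the ranges overlapped. Grem1 had a log2 fold change of 0.41 ± 0.26 (edgeR adjusted p = 0.358). Nog, a gene at chr11:89300638-89302559 with 22 to 78 counts per mouse, had the lowest counts of the 9. Its level was 3.10 ± 1.19 CPM in WT Control and 2.84 ± 0.530 CPM in WT T1D, and the 95% interval of its log2 fold change ran from -0.67 to 0.41 (edgeR adjusted p = 0.822). No one of the 9 genes separated the 2 WT groups completely, as 2.19% of all tested genes did.

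RefSeq promoter sequence (GRCm38.p6, 250 bases before the gene start) was at hand for Bmp4, Bmp5, Bmp6, Bmp8a, and Grem1. Those of 3 ligands with lower values in WT T1D, and that of Grem1, which had the opposite direction, are shown 5′ to 3′ on the strand of the gene so that their base composition can be compared. Capitals mark GGGCGG, the GC box bound by SP1-family factors, and GGCGCC, a GC-rich SMAD-binding sequence, on either strand.
Bmp4, chr14:46390670-46390919, minus strand: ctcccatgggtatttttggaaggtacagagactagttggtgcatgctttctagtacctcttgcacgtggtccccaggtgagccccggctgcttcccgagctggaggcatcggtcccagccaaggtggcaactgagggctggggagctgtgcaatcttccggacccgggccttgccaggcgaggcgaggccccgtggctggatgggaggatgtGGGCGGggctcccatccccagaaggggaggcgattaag
Bmp8a, chr4:123343253-123343502, minus strand: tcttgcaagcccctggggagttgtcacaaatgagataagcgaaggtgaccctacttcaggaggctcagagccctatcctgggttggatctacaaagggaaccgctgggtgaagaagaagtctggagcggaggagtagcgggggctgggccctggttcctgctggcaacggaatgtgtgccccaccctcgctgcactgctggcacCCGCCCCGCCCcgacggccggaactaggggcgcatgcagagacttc
Bmp5, chr9:75775115-75775364, plus strand: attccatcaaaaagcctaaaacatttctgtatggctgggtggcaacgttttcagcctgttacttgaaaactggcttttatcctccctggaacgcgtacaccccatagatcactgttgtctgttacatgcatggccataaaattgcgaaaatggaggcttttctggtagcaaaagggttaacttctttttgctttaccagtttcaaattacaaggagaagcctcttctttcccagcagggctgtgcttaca
Grem1, chr2:113758649-113758898, minus strand: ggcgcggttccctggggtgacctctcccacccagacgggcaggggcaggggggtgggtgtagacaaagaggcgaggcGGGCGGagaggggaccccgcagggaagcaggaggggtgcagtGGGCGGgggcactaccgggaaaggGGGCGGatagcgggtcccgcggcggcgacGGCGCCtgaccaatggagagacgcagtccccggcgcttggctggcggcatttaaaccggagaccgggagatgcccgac

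GC content was 63.2% for Bmp4, 62.0% for Bmp8a, 42.8% for Bmp5, 68.8% for Bmp6, and 72% for Grem1, against a median of 52.0% over 27025 promoters. GGGCGG was found in 4 of the 5 promoters, all but that of Bmp5, and in 32.9% of all promoters. GGCGCC was found only in that of Grem1, and in 9.54% of all promoters. TGTGGT, the core of the RUNX motif, and TATAAA, the TATA box, were in 0 of the 5 and in 14.2% and 13% of all promoters. The capitals in Bmp8a are 2 overlapping GC boxes. Bmp4 and Bmp8a, both lower in value in WT T1D, and Grem1, higher in value, thus shared the GC box, and these letters did not divide the genes by direction.

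The values of Bmp2 and Bmp7 in WT T1D depended on 2 mice. A3905 and A3906 were the lowest 2 of 23 mice for 4 of the 9 genes, Bmp2, Bmp3, Bmp6, and Bmp7, and these were also the mice with the fewest osteoblast marker counts. Without them, Bmp2 had a log2 fold change of -0.00020 and Bmp7 of -0.0049 in WT. It was -0.25 ± 0.14 for Bmp3, -0.33 ± 0.22 for Bmp5, and 0.27 ± 0.14 for Bmp6. Bmp4 at -0.47 ± 0.20, Bmp8a at -0.41 ± 0.23, Grem1 at 0.35 ± 0.29, and Nog at -0.09 ± 0.30 moved least. No gene of the whole table was called without them, and 1571 genes had an unadjusted p under 0.05. The part of osteoblast, erythroid, or other cell content in these changes was not tested.

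The series of mouse labels gave a second view. A1757, the only WT Control mouse labelled A17, was the lowest of the 5 WT Control mice for 8 of the 9 genes, all but Nog. Among the A17 mice, 3 of 3 WT T1D mice were below A1757 for Bmp4 and for Bmp8a, 2 of 3 for Bmp3, 1 of 3 for Bmp5, and 0 of 3 for Bmp2, Bmp6, and Bmp7. With 1 control, no test within this series was made. When only A36 to A39 mice were fitted, with 4 WT Control and 3 WT T1D mice of which 2 were A3905 and A3906, Bmp3 had a log2 fold change of -0.996 (edgeR adjusted p = 0.0146) and Bmp2 of -0.83 (edgeR adjusted p = 0.0329). In that fit 2211 genes were called, against 334 with all 23 mice, so calls were more frequent among all genes too. Bmp4 and Bmp8a were thus lower in value in both series, and Bmp2 and Bmp7 in the A36 to A39 series alone. Within the A36 to A39 series, 3 of 3 WT T1D mice were below all controls for Bmp4 and for Bmp3. For Bmp8a, Bmp2, and Bmp7 only A3905 and A3906 were, and A3909 was not. These are values and not a test of the difference between the series.

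**Figure D2:**
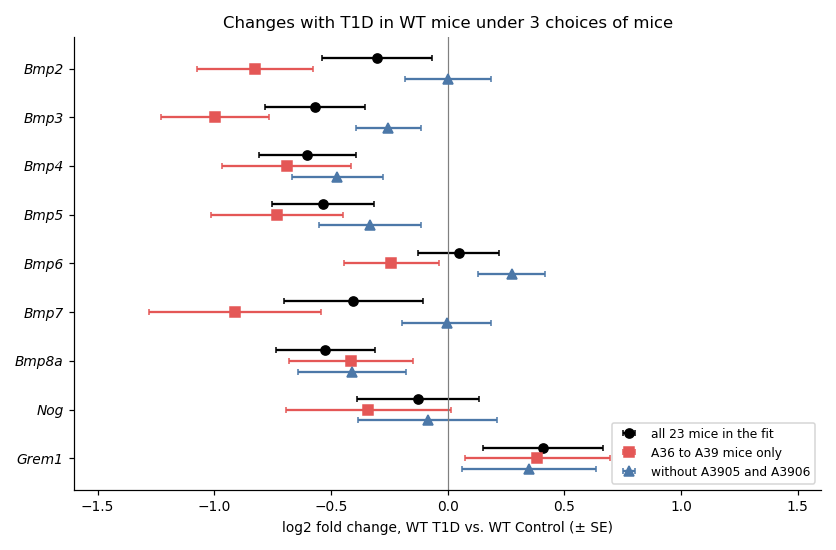
Log2 fold change of WT T1D against WT Control (x axis, ± SE, edgeR) for each of the 9 genes, with all 23 mice in the fit, with A36 to A39 mice only, and without A3905 and A3906. The values for Bmp2 and Bmp7 move from -0.83 and -0.91 to near 0 between the last 2 choices, and those for Grem1 stay between 0.35 and 0.41.

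In mice labelled KO, none of these genes was called with T1D, and 4 of 9 had lower fitted values, against 50.6% of all genes. Log2 fold changes ran from -0.15 for Nog to 0.38 for Bmp2, and 0 of 9 were called, against 0% of all genes. At an unadjusted p of 0.05 there were 0 of 9, against 3.15% of all genes. Bmp2 measured 14.8, 15.2, 16.1, 16.5, 17.4, and 19.0 CPM in KO Control. It measured 14.2, 15.9, 22.96, 24.9, 24.9, and 25.8 CPM in KO T1D. Thus 4 of 6 KO T1D mice were above every KO Control mouse for Bmp2, and the other 2 were not. This gave a log2 fold change of 0.38 ± 0.22 (edgeR adjusted p = 1.00). Bmp4 was 12.7 ± 2.42 CPM in KO Control and 12.8 ± 3.49 CPM in KO T1D, with a 95% interval of the log2 fold change from -0.40 to 0.42. Bmp3 was 74.2 ± 7.04 and 81.8 ± 10.8 CPM, with an interval from -0.28 to 0.56. Intervals of this width do not show that the groups were equal.

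The interaction asks whether the change with T1D differed between genotypes. It was below 0 for 3 of 9 genes, against 49% of all genes, and above 0, which means a higher change in KO, for 6 of the 7 ligands, and it was called for 0 of 9 genes, against 0% of all genes. At an unadjusted p of 0.05, 4 of 9 were positive, against 4.81% of all genes, and 0 were negative, against 5.4%. These were Bmp3 at 0.71 ± 0.30, Bmp2 at 0.68 ± 0.33, Bmp8a at 0.65 ± 0.29, and Bmp4 at 0.61 ± 0.29 on the log2 scale, with edgeR adjusted p from 0.479 to 0.485. Bmp6 at -0.17, Nog at -0.02, and Grem1 at -0.47 had the other sign. Without A3905 and A3906 the values were 0.39 for Bmp3, 0.37 for Bmp2, 0.53 for Bmp8a, and 0.47 for Bmp4. Of these only Bmp3 then had an unadjusted p under 0.05, against 2.46% of all genes that were positive, and Bmp6 at -0.41 was the 1 gene that was negative, against 2.2%. The 8 osteoblast and 7 chondrocyte markers were all positive for the interaction with all mice. The 10 erythroid and 7 skeletal muscle markers were all negative, and the other marker lists went both ways. The part of these cells in the values of the 9 genes was not tested. A difference between genotypes in the T1D response of these genes was therefore not established by this test.

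**Figure D3:**
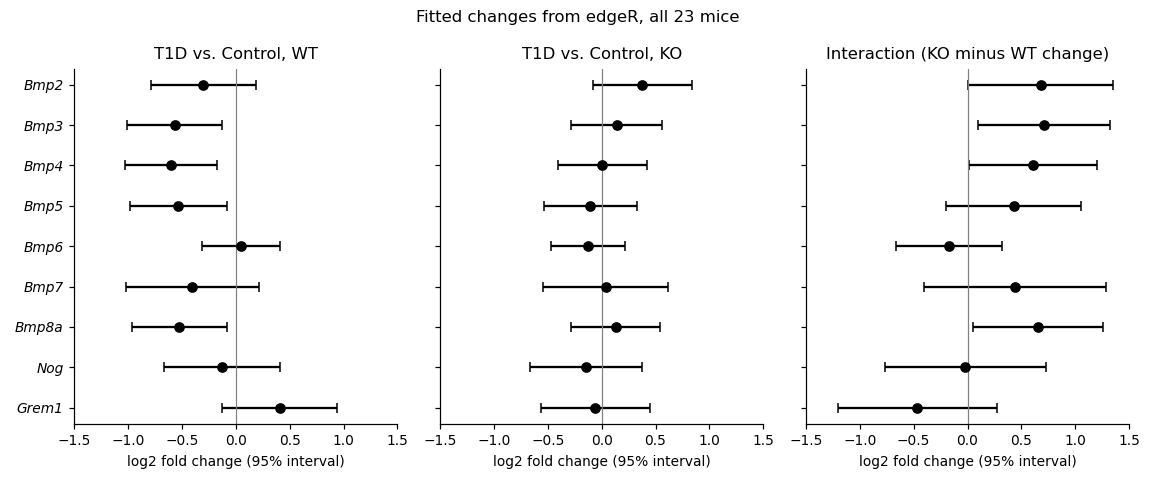
Log2 fold change (x axis, points with 95% intervals, edgeR) of the 9 genes for T1D against Control in WT, for T1D against Control in KO, and for the interaction, with all 23 mice. In WT the intervals of Bmp3, Bmp4, Bmp5, and Bmp8a lie below 0, in KO all 9 include 0, and no adjusted p passed the threshold.

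Between genotypes, several genes differed in value in the diabetic mice. In KO T1D against WT T1D, 0 of 9 genes were called, against 0.0905% of all genes, and at an unadjusted p of 0.05 there were 4 higher, against 8.44% of all genes, and 1 lower, against 8.65%. Bmp3 had the smallest p, and measured 67.6, 74.1, 79.8, 84.6, 85.6, and 98.9 CPM in KO T1D. All 6 of these were above the WT T1D mean of 51.3 CPM, and 2 were above every WT T1D mouse. Bmp3 had a log2 fold change of 0.67 ± 0.21 (edgeR adjusted p = 0.145), and 0.36 ± 0.13 without A3905 and A3906. Bmp7 at 0.72 ± 0.28, Bmp2 at 0.51 ± 0.22, and Bmp8a at 0.50 ± 0.20 were the other 3 higher genes, and without the 2 mice they had 0.31, 0.21, and 0.38, none with an unadjusted p under 0.05. Grem1 was the lower gene at -0.51 ± 0.24, and all 6 KO T1D mice were below the WT T1D mean of 10.4 CPM. Without the 2 mice it had -0.45, and Bmp3 alone of the 9 had an unadjusted p under 0.05, against 3.13% of all genes that were higher. In this comparison 8 of 8 osteoblast markers were higher in value, and 10 of 10 erythroid and 7 of 7 skeletal muscle markers were lower. The other marker lists went both ways, and the part of these cells in the result was not tested. This comparison shares its WT T1D mice with the comparison of T1D in WT.

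In KO Control against WT Control, 0 of 9 genes were called, against 0.0278% of all genes, and 0 of 9 had an unadjusted p under 0.05, against 4.80% of all genes. Bmp4 had the smallest p. It measured 10.2, 10.4, 12.7, 12.8, 13.3, and 16.9 CPM in KO Control, and 5 of these 6 were below every WT Control mouse. Its log2 fold change was -0.35 ± 0.21 (edgeR adjusted p = 0.999). Bmp4 was thus lower in value in each of the other 3 groups than in WT Control. The chondrocyte and the osteoblast markers both had the same order of groups in mean summed CPM. Chondrocyte markers were at 1221 for WT Control, 544 for WT T1D, 680 for KO Control, and 714 for KO T1D. Osteoblast markers were at 91567, 49900, 76359, and 85011 in the same order. In KO Control, 6 of the 7 chondrocyte and 7 of the 8 osteoblast markers were lower in value. The part of either in the Bmp4 values was not tested.

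The level of Nog and Grem1 relative to the 7 ligands was described on the TPM scale. This is not the balance of the whole pathway. Bmp3, the most abundant of the 7, opposes the osteogenic ligands, and Gdf10, at 17.6 TPM in WT Control, is not in the sum. Other secreted antagonists are not in it either, among them Nbl1 at 48.0, Twsg1 at 20.5, and Chrdl1 at 13.5 TPM in WT Control. The 7 ligands summed to 72.02 ± 13.1 TPM for WT Control, 45.8 ± 19.0 TPM for WT T1D, 67.1 ± 8.33 TPM for KO Control, and 68.0 ± 10.4 TPM for KO T1D. Without A3905 and A3906 the sum for WT T1D was 56.7 ± 11.0 TPM (n = 4). Nog and Grem1 together summed to 9.76 ± 3.14, 9.77 ± 1.66, 9.05 ± 2.64, and 8.28 ± 1.35 TPM in the same order. TPM values are relative to all transcripts, and on log2(TPM + 1) the median of all tested genes was lower by 0.24 in WT T1D, so part of the lower ligand sum is common to the typical gene. Ratios within a mouse do not carry this shift. Nog and Grem1 together amounted to 9.19%, 11.3%, 13.4%, 16.99%, and 17.1% of the TPM of the 7 ligands in the WT Control mice. They amounted to 14.1%, 15.3%, 20.3%, 23.6%, 31.2%, and 45.5% in the WT T1D mice, and the highest 2 were A3905 and A3906. In the KO groups the range was 9.81% to 17.1% for Control and 9.66% to 14.9% for T1D. The other 4 WT T1D mice overlapped the WT Control mice in part.

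The make-up of the ligands also differed. Bmp6 was 13.9% to 18.6% of ligand TPM in WT Control and 20.2% to 28.9% in WT T1D, and these ranges did not overlap. It was 16.4% to 21.7% in KO Control and 11.8% to 20.6% in KO T1D, which overlapped. Bmp6 itself was 12.1 ± 2.19 TPM in WT Control and 10.4 ± 3.92 TPM in WT T1D. Its higher share in WT T1D thus came with a lower ligand sum and not with higher Bmp6. The share of Bmp6 was chosen after its values were seen, and it is given as a description. The share of Bmp3 was 22.8% to 28.3% for WT Control, 17.2% to 27.2% for WT T1D, 23.2% to 29.5% for KO Control, and 25.5% to 30.6% for KO T1D.

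**Figure D4:**
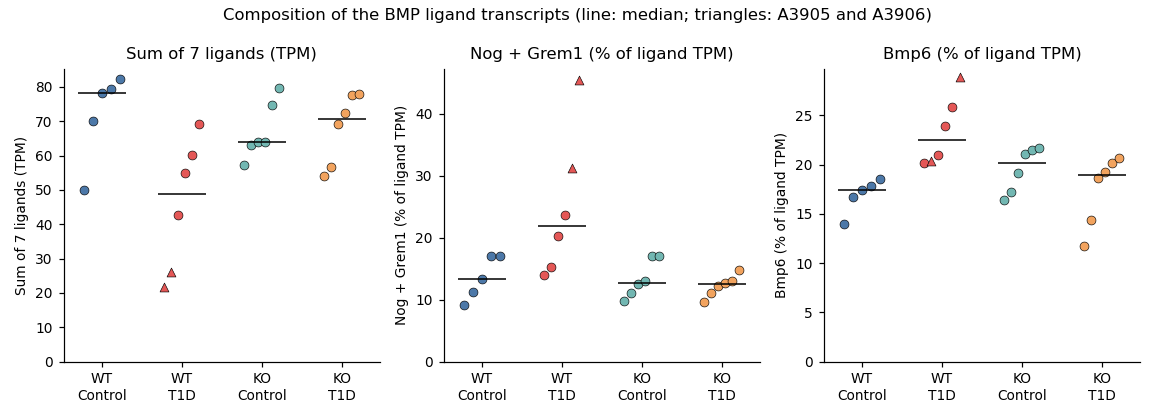
Summed TPM of the 7 ligands, Nog and Grem1 as a percent of ligand TPM, and Bmp6 as a percent of ligand TPM (y axes, linear from 0) in each mouse by group, with lines for medians and triangles for A3905 and A3906. The WT T1D medians are 48.8 TPM, 21.98%, and 22.5%, against 78.2 TPM, 13.4%, and 17.4% in WT Control.

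Across mice, most pairs of ligands had positive correlations, and Nog did not vary with them. On log2(CPM + 0.5), Bmp3 and Bmp7 had a Pearson r of 0.91 over 23 mice and 0.65 over the 21 mice without A3905 and A3906. Bmp2 and Bmp3 had 0.88 and 0.72, and Bmp4 and Bmp5 had 0.75 and 0.68. Bmp6 and Bmp3 had 0.56 over 23 mice and -0.0012 over 21, so this relation rested on the 2 mice. Nog had r between -0.21 and 0.14 with every other member over 23 mice. Bmp6 and Grem1 had 0.27 over 23 mice and 0.68 over 21. Grem1 and the mean log2 value of the marrow stromal markers had 0.69 over 23 mice and 0.65 over 21, the highest for Grem1 among the marker lists. The part of stromal content in the Grem1 values was not tested. These correlations pool the 4 groups and share library depth and tissue content, so they are descriptions only.

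Among 13306 genes with a mean of at least 1 CPM, the gene most like Bmp3 over 23 mice was Wisp1, a secreted matricellular protein of bone, with an r of 0.96, followed by Ccdc194 and by Phex, an osteocyte peptidase that regulates phosphate. Galnt5, P4ha1, and Pcsk6 were most like Bmp7, and the r of Galnt5 was 0.96. Over 21 mice these top values were 0.85 for Wisp1 and 0.83 for Galnt5. Bmp2 was most like Twsg1, itself a secreted modulator of BMPs, with an r of 0.88 and 0.86 over 21 mice, then Bmp3 and Lpar1. Bmp5 was most like Timp1, Col6a1, and Ccdc80, with r of 0.93, 0.93, and 0.91, and over 21 mice these were 0.91, 0.93, and 0.91. Bmp4 was most like Fbln7, Fam171a2, and Zc2hc1a, and Bmp6 most like Fbln5, Aldh1a2, and Col8a1, with leading r of 0.83 and 0.85. For Bmp8a the genes were Ttc26, Cspg4, and Tnrc18, led by 0.81. For Grem1 they were Lrrc40, AI661453, and Gpr50, led by 0.86. Nog had the loosest relations, with Nptxr at 0.70, then Mcrip1 and Il17rc.

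The rest of the pathway was examined with 50 other genes, of which 40 were tested. None was called in any of the 5 comparisons by edgeR. With T1D in WT, 28 of the 40 had lower fitted values, against 51.9% of all genes. At an unadjusted p of 0.05, 8 were lower, against 11.2% of all genes, and 3 were higher, against 11.0%. Without A3905 and A3906, 0 were lower, against 5.62% of all genes, and 2 were higher, Dand5 and Fstl3, against 5.36%. The receptors had a median log2 fold change of -0.16 over 10 genes. The type I receptor Acvr1 was 15.8 CPM in WT Control and 11.3 CPM in WT T1D, with a log2 fold change of -0.48 ± 0.17 (edgeR adjusted p = 0.102). The type II receptor Bmpr2 had -0.30 ± 0.12 (edgeR adjusted p = 0.149). The 4 SMADs had a median of -0.26, and Smad5, a signal transducer of these receptors, had -0.32 ± 0.12 (edgeR adjusted p = 0.108). Smad1 had -0.20 ± 0.11. Without A3905 and A3906 these 4 had -0.27 for Acvr1, -0.21 for Bmpr2, -0.16 for Smad5, and -0.09 for Smad1. The common partner Smad4 had 0.0021. Of the 10 receptors and co-receptors, 7 were lower and 3 higher in value, the latter being Acvrl1 at 0.37, Rgma at 0.63, and Hjv at 0.33. These 3 are named after their values were seen, and none of the 10 passed.

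The intracellular inhibitors had a median of -0.23 over 5 genes. Bambi, a decoy receptor, was 84.3 CPM in WT Control and 52.96 CPM in WT T1D, with -0.67 ± 0.33 (edgeR adjusted p = 0.234), and Smad6, which blocks receptor signaling, had -0.54 ± 0.29 (edgeR adjusted p = 0.285). Both are also transcriptional targets of BMP signaling. The 11 tested target genes had a median of -0.23, with 9 lower and 2 higher in value. Bambi, Smad6, and Smad7 are on both lists, and the median of each list is the value of Smad7, so the 2 medians are not separate results. Dlx5, an osteoblast transcription factor, had -0.67 ± 0.27 (edgeR adjusted p = 0.143) and Id3, an inhibitor of DNA binding, had -0.48 ± 0.20 (edgeR adjusted p = 0.163). When A3905 and A3906 were left out, these 4 had -0.24 for Bambi, -0.17 for Smad6, -0.31 for Dlx5, and -0.19 for Id3. Id1, the target used most often to read BMP signaling, had -0.0062 (edgeR adjusted p = 0.985), so the targets did not move as one. It is named here after its value was seen.

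The other secreted antagonists were divided, with 5 lower and 5 higher and a median of 0.06. Dand5, a relative of gremlin, had 0.38 ± 0.12 (edgeR adjusted p = 0.0781), and Fstl3, a follistatin-like inhibitor mainly of activins, had 0.33 ± 0.14 (edgeR adjusted p = 0.182). Of 7 other ligands, 3 were tested. Gdf5, a joint and cartilage ligand, averaged only 0.555 CPM in WT Control and 0.208 CPM in WT T1D, with -1.39 ± 0.64 (edgeR adjusted p = 0.203), and Bmp8b had 0.19 ± 0.54. Bmp8b had the other sign without A3905 and A3906, at -0.94 ± 0.52. With T1D in KO, 26 of the 40 genes were lower in value, against 50.6% of all genes. At an unadjusted p of 0.05, 1 was lower, against 1.66% of all genes, and 0 were higher, against 1.49%.

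**Figure D5:**
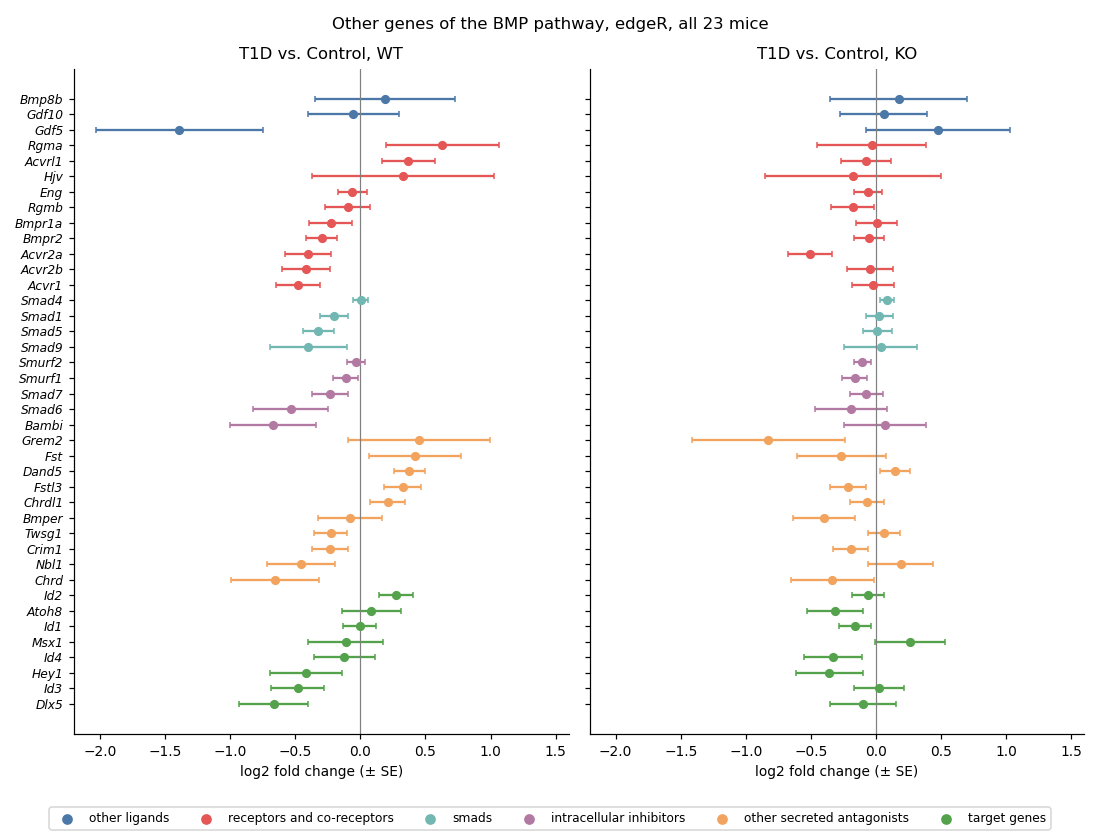
Log2 fold change (x axis, ± SE, edgeR) with T1D in WT and in KO of the 40 other tested genes of the BMP pathway, colored by role. In WT 28 of 40 points lie below 0 and in KO 26 of 40, and none passed the threshold in either genotype.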

How the data were processed

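RNA-Seq values from bone of 23 mice were used, grouped by the library labels. The authors deposited RSEM expected counts as unnormalized whole numbers, and the deposited TPM values are those of the sequencing provider. Paired-end oligo dT libraries had been sequenced on a DNBSEQ instrument, SOAPnuke had filtered the reads, and HISAT and Bowtie2 had aligned them against GRCm38.p6. Versions, and the use of strand in counting, are not given in the sources used here.

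Members and the count table were matched by gene ID. A gene was tested if 5 or more mice had 10 or more counts of it, in R 4.3.3 with edgeR 4.0.16 (TMM, quasi-likelihood, 4 groups in 1 fit with contrasts) and Benjamini-Hochberg adjustment over all tested genes, with a threshold of 0.05. Alternatives used DESeq2 1.42.0, limma 3.58.1 on log2(TPM + 1) or log2(TPM + 0.1), other normalizations and filters, and other choices of mice. Likeness was Pearson's r on log2(CPM + 0.5). Figures were drawn in Python 3.11.15 with matplotlib 3.10.9. The steps were tested on simulated data. Mice of the same group differed by more than sampling noise in all 55 pairs (chi-square per gene from 10.9 to 187).

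The members, lists, and tests were chosen with earlier results of these data known. Of the other pathway lists, the 2 genes with the lowest p for T1D in WT were named from each, and for each member the 3 most alike genes. Hjv was matched by gene ID under an older symbol, and Ahsp was not matched. Promoters were read from RefSeq for 5 of 9 members. Those of Bmp2, Bmp3, Bmp7, and Nog are not shown.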

Additional observations from a re-analysis of the deposited data

Results flagged for a closer look

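Of the 9 genes and the other named pathway genes, 1 value stood apart within its group. Bambi, the decoy receptor of the pathway, was at 132 CPM in the KO Control mouse A3766, against 89.1 CPM in the next highest mouse of that group, and the gap was 0.695 of the range of the group, above Dixon's 95% critical value for 6 mice. Chance gives about 1 such value in 20 groups, and 84 groups were examined.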

How the results depend on the processing

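No paired analysis was possible because the groups share no mouse numbers. Results were recomputed under 8 alternatives, or 7 for T1D in KO and for KO against WT in Control, where A3905 and A3906 take no part, and with each mouse of the groups compared left out in turn. No member was called for T1D in KO, for the interaction, or for KO against WT in Control under any of these.

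For T1D in WT, 334 of 14364 tested genes, or 2.33%, were called with edgeR. The count was 1002 with DESeq2, 88 with no count filter, and 5154 and 5173 with limma on log2(TPM + 1) and log2(TPM + 0.1). It was 2211 with A36 to A39 mice only and 0 without A3905 and A3906. Members called there rose from 0 to 4 of 9 with limma on TPM at either pseudocount (Bmp3, Bmp4, Bmp5, and Bmp8a). They rose to 2 of 9 with A36 to A39 mice only. Each of these fits also called many more of all genes, so the rises alone are not a result about the members. On the TPM scales the median of all genes was -0.24 and -0.29, against which the values of these genes on log2(TPM + 1) were -0.90, -0.84, -0.66, and -0.70. For KO against WT in T1D, 13 of 14364 tested genes, or 0.0905%, were called with edgeR. The count was 239 with DESeq2, 5 with DESeq2 size factors, 3 with no count filter, and 1166 and 1185 with limma. It was 1540 with A36 to A39 mice only and 4 without A3905 and A3906. Members called rose from 0 to 1 of 9 with DESeq2 (Bmp3, adjusted p = 0.0487), to 2 and 1 of 9 with limma, and to 2 of 9 with A36 to A39 mice only. Again each of these fits called many more of all genes. For the interaction, 2 genes were called with limma on log2(TPM + 1).

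Leaving out 1 mouse gave 0 to 1262 genes for T1D in WT and 3 to 95 for KO against WT in T1D, and 0 to 2 and 0 to 1 members. Without A1758, Bmp3 was called in WT (edgeR adjusted p = 0.0404), where 538 of all genes were called. It was also called for KO against WT in T1D (edgeR adjusted p = 0.0445), where 52 of all genes were called. Without A3909, Bmp4 (edgeR adjusted p = 0.0480) and Bmp8a (edgeR adjusted p = 0.0214) were called in WT, where 1262 of all genes were called. The cause was not tested.

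Signs turned for values near 0. With limma at the larger and smaller pseudocount these were Bmp6 in WT (-0.26, -0.29), for the interaction (0.10, 0.12), and for KO against WT in T1D (0.22, 0.24), Nog for the interaction (0.12, 0.15) and for KO against WT in T1D (0.0093, 0.014), and, in KO, Bmp4 (-0.057, -0.066) and Bmp7 (-0.026, -0.029). With A36 to A39 mice only these were Bmp6 in WT (-0.24), for the interaction (0.11), and for KO against WT in T1D (0.23), and Nog for the interaction (0.19) and for KO against WT in T1D (0.012). Over the mice left out, values that turned ranged in WT from -0.072 to 0.17 for Bmp6 and from -0.33 to 0.022 for Nog, and for the interaction from -0.17 to 0.18 for Nog. In KO they ranged from -0.11 to 0.11 for Bmp4, -0.18 to 0.12 for Grem1, -0.063 to 0.097 for Bmp7, -0.21 to 0.0081 for Bmp5, and -0.028 to 0.23 for Bmp8a. For KO against WT they ranged in Control from -0.11 to 0.018 for Bmp3 and -0.24 to 0.15 for Grem1, and in T1D from -0.12 to 0.11 for Bmp6.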
